A study of Homo sapiens with 6 samples.

Results

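Homologous recombination and Fanconi repair genes are described here across the IRF3 hairpins in MM.1S cells. The members are 39 genes listed by symbol for their known roles, with earlier results of these data in view, and all 39 were found in both deposited tables among 33095 genes. RAD54B stood on 2 rows. The row whose identifier carries the name RAD54B in GENCODE 29 was used, and the other, which GENCODE names FSBP, is given beside it. MM.1S is an established line of multiple myeloma, a tumour of plasma cells. Its cells received, by lentivirus, a scramble control hairpin, an IRF3 hairpin called shRNA 1 or an IRF3 hairpin called shRNA 2, with 2 libraries in each of the 3 groups. The labels give no time after transduction and no statement that the 2 libraries came from separate cultures, so the p-values measure the spread between libraries, which may be technical. Poly(A) RNA was sequenced. The deposited tables hold, for each gene, a mean normalised read count over the 6 libraries. For each hairpin they add the log2 fold change over scramble with its standard error (SE) and DESeq2's raw and adjusted p. No value of a single library was used here, so a group level below is a mean reconstructed from the overall mean and both fold changes.

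The targeted transcript sets a limit on these groups. In the authors' deposited tables IRF3 stood at -1.53 ± 0.10 (log2 fold change ± SE) with shRNA 1 (DESeq2 adjusted p = 8.45e-46) and at -0.18 ± 0.10 with shRNA 2 (DESeq2 adjusted p = 0.181). A fall of IRF3 was thus not detected in the libraries labelled shRNA 2. The cell identity was checked on markers. All 10 plasma cell markers were well expressed, with reconstructed scramble means from 1229 (CD38) to 38854 (JCHAIN) normalised reads. The 11 matched genes listed as markers of other cell types lay between 0.652 (MPO) and 438 (PECAM1), with none at 0. Levels of the plasma cell list moved with the groups: 7 of 10 markers fell and 1 rose with shRNA 1, and 8 fell and 1 rose with shRNA 2, in the authors' deposited tables. IRF4, the myeloma master regulator, had means of 17637, 7613 and 4823. Of the genes listed for other cell types, 2 of 5 tested fell (NCAM1 and PECAM1) and 1 rose (CD3E) with shRNA 1. With shRNA 2, 3 of 7 tested fell (NCAM1, PECAM1 and HBB). The part of these shifts in the results was not tested.

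Homologous recombination repairs a break in both DNA strands by copying the sister chromatid. The MRE11, RAD50 and NBN complex with RBBP8 (CtIP) trims the ends. BRCA1 with BARD1 recruits PALB2 and BRCA2, which prepare the trimmed end for strand exchange, and the complexes of XRCC2 and XRCC3, the RAD54 motors and RAD51AP1 help the end find and invade its template. BLM, TOP3A, RMI1 and RMI2 then separate the joined molecules. The Fanconi pathway unhooks crosslinks between the strands: a core complex with the conjugating enzyme UBE2T attaches ubiquitin to FANCD2 and FANCI, which draws in nucleases. ATM and ATR are the kinases that sense the damage, and CHEK1 and CHEK2 relay it to the cell cycle. Many of these genes are transcribed mainly in late G1 and S phase under E2F control.

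Most of these genes were lower in the libraries labelled shRNA 2, and a smaller number were lower with shRNA 1. With shRNA 2, 29 of 39 members fell and 0 rose at a DESeq2 adjusted p below 0.05, against a background of 18.1% lower and 10.9% higher among the 17054 genes tested in the authors' deposited table. Without adjustment, p was below 0.05 for 31 lower members and 0 higher ones. The median log2 fold change of the members was -1.12, which is 0.461 times scramble, against 0.00 for all genes tested, computed from the authors' deposited table. With shRNA 1, 8 members fell and 1 rose, against a background of 14.8% lower and 9.80% higher among 14488 genes tested in the authors' deposited table. The median there was -0.27, or 0.831 times scramble, against -0.03 for all genes tested. Among all genes with a mean of 50 or more normalised reads, 16.4% were lower with shRNA 1 and 23.1% with shRNA 2. The share of members lower with shRNA 1, 20.5%, is thus near the background, and the share lower with shRNA 2, 74.4%, is well above it. Because the members were listed with earlier results of these data in view, these shares describe this list only. Of 41 other genes of the pathway, 46.3% were lower with shRNA 2. Both comparisons use the same scramble libraries. In bulk RNA, fewer cells in S and G2 phase and less RNA of these genes per cell cannot be told apart. Counting each gene once, 7 members passed in both, 22 with shRNA 2 and not shRNA 1, 2 with shRNA 1 and not shRNA 2, and 8 in neither. Among all 33095 genes, 1747 passed in both, 3192 with shRNA 2 and not shRNA 1, and 1824 with shRNA 1 and not shRNA 2. The remaining 26332 passed in neither, many of them without an adjusted p. A closer background is the 12977 genes with a mean of 50 or more, all tested in both comparisons. Of these, 1726 passed in both, 2999 with shRNA 2 and not shRNA 1, and 1783 with shRNA 1 and not shRNA 2. The other 6469 passed in neither.

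The hairpins were also compared with each other, by dividing the gap between a gene's 2 fold changes (log2) by an SE built from both deposited SEs. Because scramble is shared, that SE is too large. This z test, two-sided and adjusted by Benjamini-Hochberg over 14488 genes, called 21 members lower with shRNA 2 than with shRNA 1 and 0 higher (27 and 0 at an unadjusted p below 0.05). The background was 13.8% lower and 10.1% higher. The median difference of the members was -0.79 on the log2 scale. The plot of fold changes by role shows both comparisons for every member.

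**Figure D1:**
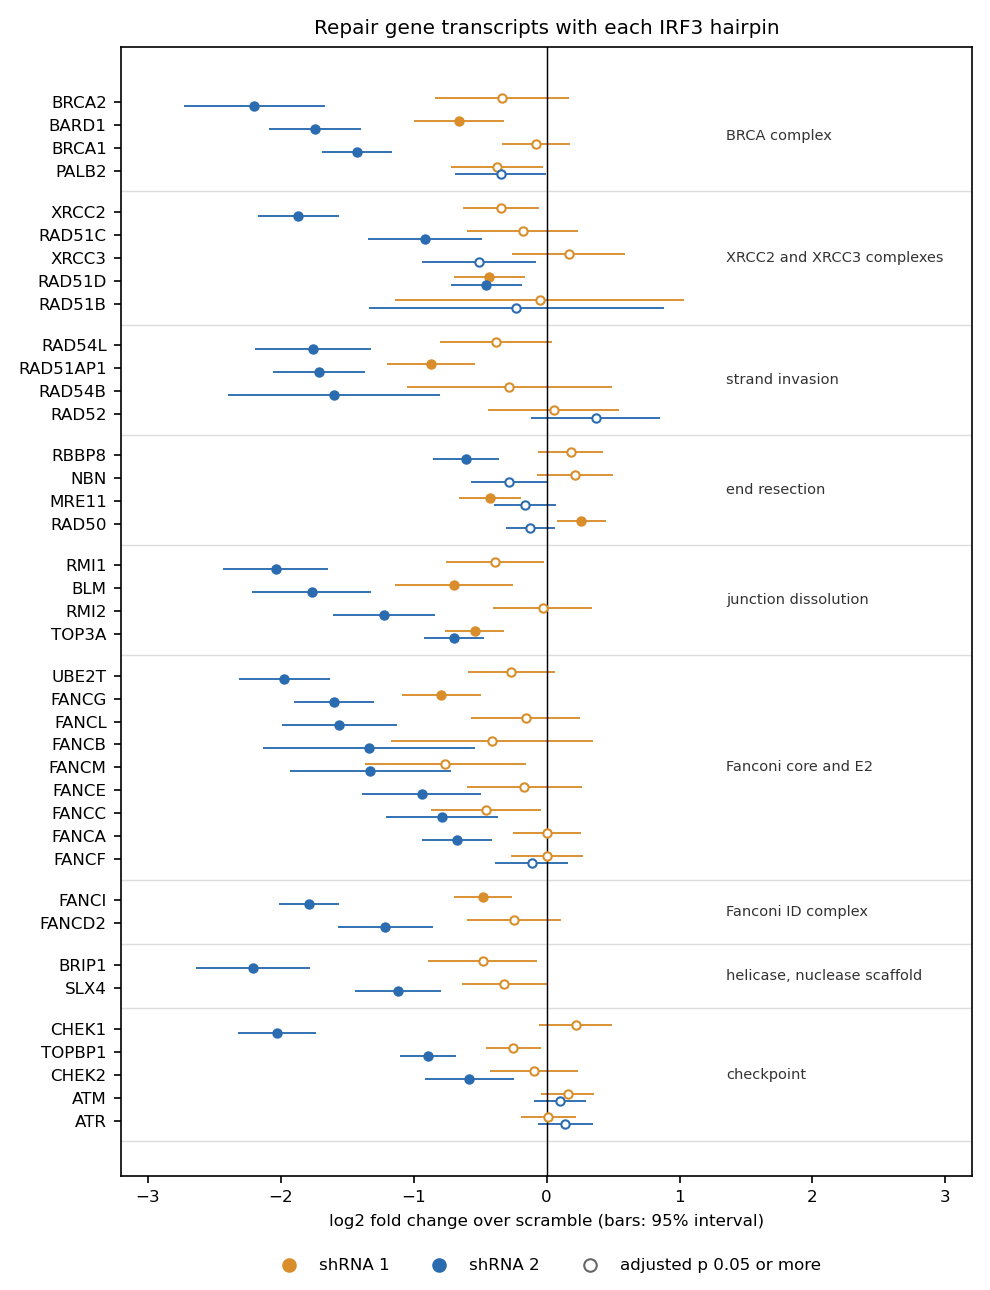
Log2 fold change over scramble for the 39 repair genes, grouped by role, with shRNA 1 in orange and shRNA 2 in blue; bars are 95% intervals from the deposited SE and open points have an adjusted p of 0.05 or more. With shRNA 2, the 29 filled blue points all lie left of 0, from BRIP1 (-2.21) to RAD51D (-0.45), and ATM, ATR and RAD52 lie right of 0 with open points.

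Of the BRCA complex, 3 of 4 genes fell with shRNA 2 and 1 with shRNA 1. BRCA1, the ubiquitin ligase that channels breaks into recombination, had reconstructed means of 1431 normalised reads in scramble, 1354 with shRNA 1 and 532 with shRNA 2. The authors' deposited tables put its log2 fold change at -0.08 ± 0.13 (SE) with shRNA 1 and -1.43 ± 0.13 with shRNA 2 (DESeq2 adjusted p = 0.732 and 1.60e-24). The scramble and shRNA 1 levels of BRCA1 were close, and the shRNA 2 level stood apart. BARD1, its partner, had means of 876, 555 and 262, so that both hairpins were below scramble. Its log2 fold changes in the authors' deposited tables were -0.66 ± 0.17 (DESeq2 adjusted p = 0.00106) and -1.74 ± 0.18 (DESeq2 adjusted p = 3.59e-21). BRCA2 (ENSG00000139618, chromosome 13, 32315474 to 32400266 on the plus strand, GRCh38), which acts after BRCA1 and PALB2 at the trimmed end, had means of 510.4, 405 and 111. It stood at -0.34 ± 0.26 with shRNA 1 (DESeq2 adjusted p = 0.395) and -2.20 ± 0.27 with shRNA 2 (DESeq2 adjusted p = 1.57e-14) in the authors' deposited tables. PALB2, the bridge between BRCA1 and BRCA2, passed in neither, with means of 581, 449 and 457 and deposited log2 fold changes of -0.37 ± 0.18 and -0.35 ± 0.18 in the authors' tables.

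The 5 genes of the XRCC2 and XRCC3 complexes, which assist strand exchange, differed among themselves, with 3 lower with shRNA 2 and 1 with shRNA 1. XRCC2 had reconstructed means of 955 in scramble, 752 with shRNA 1 and 262 with shRNA 2. XRCC2 thus stood at 0.274 times scramble with shRNA 2 (95% interval 0.222 to 0.338). The authors' deposited table lists it at -1.87 ± 0.15 (DESeq2 adjusted p = 1.89e-31), and XRCC2 did not pass with shRNA 1 (DESeq2 adjusted p = 0.0688). RAD51C, with means of 413, 365 and 219, fell with shRNA 2 at -0.92 ± 0.22 in the authors' deposited table (DESeq2 adjusted p = 0.000200). RAD51D fell with both hairpins. Its means were 1005, 745 and 734, and the authors' deposited tables give -0.43 ± 0.14 and -0.45 ± 0.14 (DESeq2 adjusted p = 0.00948 and 0.00460). The difference between hairpins for RAD51D was -0.02, with a 95% interval of -0.40 to 0.36. XRCC3 was at -0.51 ± 0.22 with shRNA 2 and did not pass (DESeq2 adjusted p = 0.0671), per the authors' deposited table. RAD51B was the least abundant member, at a mean of 34.6 normalised reads over all libraries, and its SE of 0.57 with shRNA 2 in the authors' deposited table gives a 95% interval of 0.395 to 1.84 times scramble, so smaller changes of RAD51B were not detectable at this depth.

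Among the partners and motors of strand invasion, 3 of 4 fell with shRNA 2. RAD51AP1, which stimulates the joining of the broken end to its template, had means of 688, 376 and 209.7 and was lower with both hairpins. Its log2 fold changes were -0.87 ± 0.17 (DESeq2 adjusted p = 4.76e-06) and -1.71 ± 0.18 (DESeq2 adjusted p = 1.01e-20) in the authors' deposited tables. That fall was the largest of any member with shRNA 1. The translocase RAD54L had means of 781, 600.3 and 231, at -0.38 ± 0.22 (DESeq2 adjusted p = 0.208) and -1.76 ± 0.22 (DESeq2 adjusted p = 1.08e-13) in the authors' deposited tables. RAD54B, its relative, was sparse, with means of 122, 100.4 and 40.3, and stood at -1.60 ± 0.41 with shRNA 2 in the authors' deposited table (DESeq2 adjusted p = 0.000576). The overlapping FSBP row, which carries the symbol RAD54B in the authors' deposited table, had a mean of 18.2 and 0.94 ± 0.87 with shRNA 2, so the division of reads between these genes is uncertain. RAD52, a mediator of annealing, had reconstructed levels of 59.7, 62.0 and 77.0 normalised reads per kb of exon and the highest log2 fold change of all members with shRNA 2, 0.37 ± 0.25 (DESeq2 adjusted p = 0.296 in the authors' deposited table).

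Of the end resection genes, 1 of 4 fell with shRNA 2. In the other comparison, with shRNA 1, MRE11 fell and RAD50 rose. RBBP8 had means of 1348 in scramble, 1528 with shRNA 1 and 884 with shRNA 2. It was at 0.18 ± 0.13 with shRNA 1 (DESeq2 adjusted p = 0.332) and fell with shRNA 2, at -0.61 ± 0.13 in the authors' deposited tables (DESeq2 adjusted p = 1.74e-05). RAD50, the long coiled ATPase of the complex, was the 1 member called higher in either comparison, with means of 2142, 2568 and 1969. The authors' deposited tables give RAD50 0.26 ± 0.10 with shRNA 1 (DESeq2 adjusted p = 0.0282) and -0.12 ± 0.10 with shRNA 2 (DESeq2 adjusted p = 0.394). The RAD50 call with shRNA 1 is fragile: adjusted over every gene with a p-value it became 0.0637. MRE11, the nuclease, went the other way, with means of 1520, 1131 and 1355. It fell with shRNA 1, at -0.43 ± 0.12 (DESeq2 adjusted p = 0.00284), and stood at -0.17 ± 0.12 with shRNA 2 (DESeq2 adjusted p = 0.336) in the authors' deposited tables. NBN passed in neither. Within this complex of proteins, then, transcripts of RAD50 and MRE11 were called in opposite directions with shRNA 1, while neither was called with shRNA 2.

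All 4 junction dissolution genes fell with shRNA 2 and 2 of them with shRNA 1. RMI1 had means of 611, 467 and 149, the last 0.243 times scramble (95% interval 0.185 to 0.320 as the SE in the authors' deposited table gives it). Its log2 fold change was -0.39 ± 0.19 with shRNA 1 (DESeq2 adjusted p = 0.124) and -2.04 ± 0.20 with shRNA 2 (DESeq2 adjusted p = 2.19e-22) in the authors' deposited tables. The helicase BLM had means of 819, 505 and 241 and fell with both, at -0.70 ± 0.22 (DESeq2 adjusted p = 0.0111) and -1.77 ± 0.23 (DESeq2 adjusted p = 3.90e-13) in the authors' deposited tables. Its levels thus stepped down from scramble to shRNA 1 to shRNA 2. RMI2 had means of 488, 478 and 209 and a log2 fold change of -1.22 ± 0.20 with shRNA 2 (DESeq2 adjusted p = 7.74e-09 in the authors' deposited table). TOP3A, the topoisomerase of the complex, fell about equally with both hairpins, with means of 1833, 1260 and 1131. Its log2 fold changes were -0.54 ± 0.11 and -0.70 ± 0.11 in the authors' deposited tables (DESeq2 adjusted p = 2.81e-05 and 1.59e-08), and the difference was -0.15, with a 95% interval of -0.47 to 0.16.

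In the Fanconi core complex with its enzyme, 8 of 9 genes fell with shRNA 2 and 1 with shRNA 1. UBE2T, the ubiquitin-conjugating enzyme, had means of 926, 769 and 236. In the authors' deposited tables it was at -0.27 ± 0.17 with shRNA 1 (DESeq2 adjusted p = 0.268) and -1.97 ± 0.18 with shRNA 2 (DESeq2 adjusted p = 3.54e-27). FANCG (chromosome 9, 35073835 to 35080016 on the minus strand, GRCh38), a scaffold subunit, was the core gene lower with both, at means of 1441, 832 and 475. Its log2 fold changes were -0.79 ± 0.15 (DESeq2 adjusted p = 3.35e-06) and -1.60 ± 0.15 (DESeq2 adjusted p = 1.60e-23) in the authors' deposited tables. FANCL, the ligase subunit that carries out the transfer with UBE2T, had means of 354, 317 and 119.9 and was at -1.56 ± 0.22 with shRNA 2 (DESeq2 adjusted p = 3.69e-11 in the authors' deposited table). As ratios to scramble, FANCL was at 0.339 and UBE2T at 0.255. FANCB, FANCM, FANCE, FANCC and FANCA also fell with shRNA 2, at -1.34, -1.33, -0.94, -0.78 and -0.67 in the authors' deposited table. FANCF, the adaptor subunit, was the exception, with means of 708, 709 and 654 and a log2 fold change of -0.11 ± 0.14 (DESeq2 adjusted p = 0.629 in the authors' deposited table).

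FANCI and FANCD2, the clamp that the core complex modifies, both fell with shRNA 2. FANCI (ENSG00000140525, chromosome 15, 89243949 to 89317261 on the plus strand, GRCh38) had means of 4138, 2970 and 1198 and the lowest p of all members with shRNA 2. The authors' deposited tables give FANCI -0.48 ± 0.11 with shRNA 1 (DESeq2 adjusted p = 0.000202) and -1.79 ± 0.11 with shRNA 2 (DESeq2 adjusted p = 1.84e-52). FANCD2 had means of 1375, 1160 and 592. It was at -0.25 ± 0.18 with shRNA 1 and -1.21 ± 0.18 with shRNA 2 (DESeq2 adjusted p = 0.361 and 5.16e-10) in the authors' deposited tables. Downstream, the helicase BRIP1 (chromosome 17, 61681266 to 61863521 on the minus strand, GRCh38) showed the lowest log2 fold change of all members with shRNA 2, with means of 688, 493 and 149. It was at -0.48 ± 0.21 (DESeq2 adjusted p = 0.0746) and -2.21 ± 0.22 (DESeq2 adjusted p = 3.87e-22) in the authors' deposited tables. SLX4, the scaffold that gathers the nucleases, had means of 721, 578 and 332 and fell with shRNA 2 at -1.12 ± 0.17 (DESeq2 adjusted p = 3.69e-10 in the authors' deposited table).

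Of the 5 checkpoint genes, 3 fell with shRNA 2 and 0 passed with shRNA 1 in the authors' DESeq2 tables (1 lower and 0 higher at an unadjusted p below 0.05). CHEK1 (ENSG00000149554, chromosome 11, 125625136 to 125676255 on the plus strand, GRCh38), the effector kinase of ATR, had reconstructed means of 1178 in scramble, 1369 with shRNA 1 and 289 with shRNA 2. Its log2 fold change was 0.22 ± 0.14 with shRNA 1 (DESeq2 adjusted p = 0.291) and -2.03 ± 0.15 with shRNA 2 (DESeq2 adjusted p = 3.42e-39) in the authors' deposited tables. The hairpins differed for CHEK1 by -2.25 ± 0.21 (SE), the largest difference among the 39 members, with an adjusted p of 3.64e-25 in the z test. TOPBP1, the activator of ATR, had means of 2841, 2388 and 1533 and fell with shRNA 2 at -0.89 ± 0.11 (DESeq2 adjusted p = 4.04e-15 in the authors' deposited table). CHEK2, the effector of ATM, fell with shRNA 2, with means of 616, 576 and 411 and -0.58 ± 0.17 (DESeq2 adjusted p = 0.00342 in the authors' deposited table). A CHEK2 pseudogene, CHEK2P2, had a mean of 17.2, or 3.23% of that of CHEK2, and reads shared between them cannot be assigned here. The sensor kinases passed in neither comparison. ATM had means of 2953, 3292 and 3166, and ATR of 1901, 1918 and 2096. Their ratios to scramble with shRNA 2 were 1.07 (95% interval 0.936 to 1.23) and 1.10 (0.954 to 1.27), computed from the authors' deposited table.

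The levels span a wide range once divided by the length of the merged annotated exons, which can exceed that of the main transcript. In scramble, reconstructed means per kb of merged annotated exons ran from 560.5 for UBE2T and 533 for FANCI down to 23.0 for RAD54B and 4.92 for RAD51B, with a median of 144. The order is not fine-grained: of 38 neighbouring pairs in it, 4 were further apart than the 95% limit of their combined SE. These steps lay between FANCI and FANCG (1.34-fold), TOPBP1 and TOP3A (1.37-fold), NBN and RAD51D (1.23-fold), and RAD54B and RAD51B (4.67-fold). The combined SE covers the counts and not the choice of exon length, so a step can depend on annotation. With shRNA 2, FANCI was at 154 and UBE2T at 143 per kb, below FANCF at 222, TOPBP1 at 209.9 and ATR at 168. The plot of levels shows UBE2T, FANCI and FANCG, ranks 1 to 3 in scramble, falling among the others. TOPBP1, rank 4 in scramble, and TOP3A, rank 5 and at 175 per kb with shRNA 2, were below UBE2T, FANCI and FANCG in scramble. With shRNA 2 both lay above those genes.

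**Figure D2:**
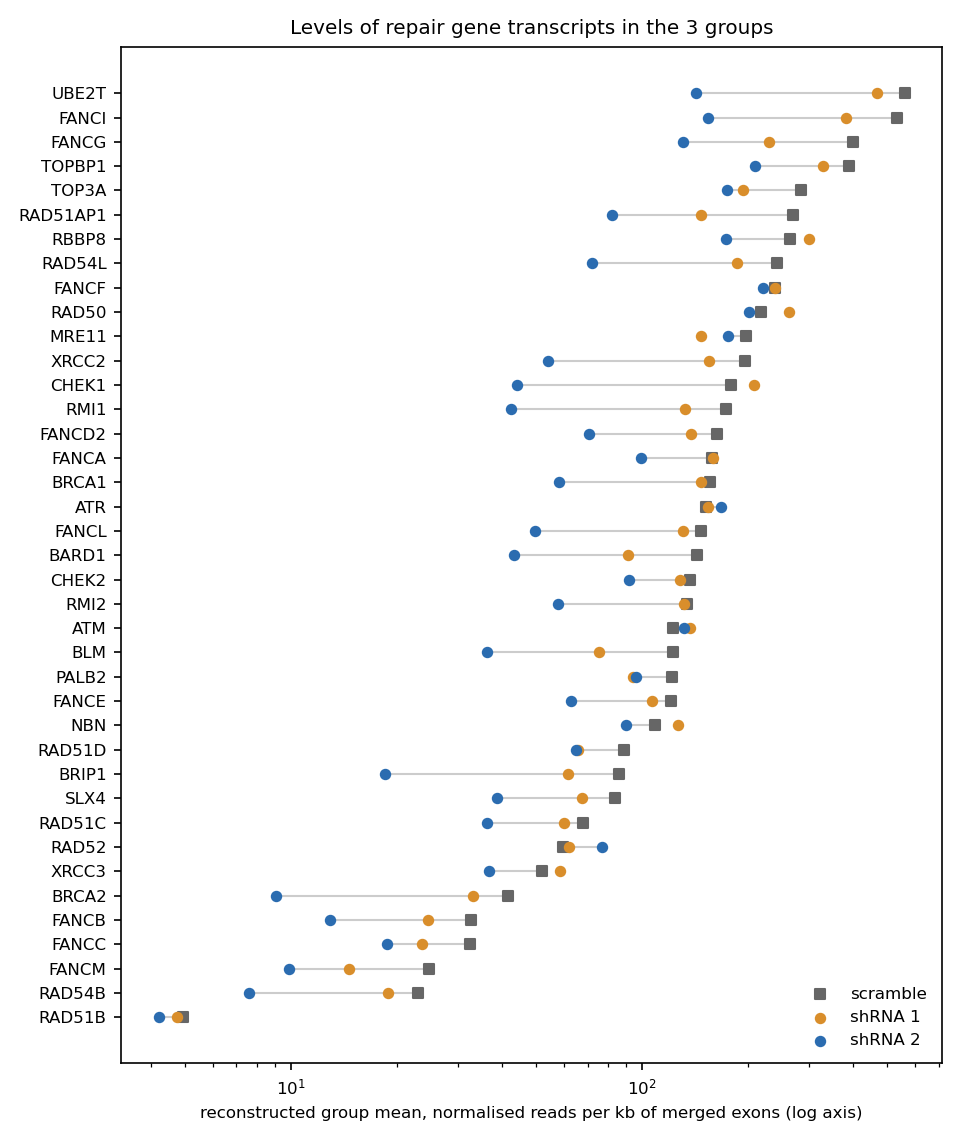
Reconstructed group means of the 39 repair genes in normalised reads per kb of merged exons (log axis), ordered by the scramble level, with squares for scramble, orange for shRNA 1 and blue for shRNA 2; each point is 1 group of 2 libraries and carries no error bar. The grey line joins scramble and shRNA 2 and is longest for BRIP1 and BRCA2 and short for ATM, ATR and FANCF.

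A list of 41 other genes of the pathway was read in the same way. With shRNA 2, 19 fell and 4 rose of 41 tested, with a median log2 fold change of -0.42, and with shRNA 1, 9 fell and 3 rose with a median of -0.12, computed from the authors' deposited tables. The resection nuclease EXO1 was at -2.10 ± 0.16 and the helicase subunit MCM8 at -1.66 ± 0.13 with shRNA 2 (DESeq2 adjusted p = 9.58e-38 and 1.96e-35 in the authors' deposited table). Of 18 further checkpoint genes, 10 fell and 1 rose with shRNA 2 (median -0.58), and CLSPN, the adaptor that presents CHEK1 to ATR, was at -2.20 ± 0.16 in the authors' deposited table (DESeq2 adjusted p = 2.65e-38).

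The other repair pathways were counted in the authors' deposited table for shRNA 2. End joining genes fell in 4 of 12 cases (median -0.31), mismatch repair genes in 3 of 7 (median -0.33), translesion synthesis genes in 3 of 8 with 1 higher (median -0.30), and base excision genes in 7 of 20 with 3 higher (median -0.24). Nucleotide excision genes fell in 4 of 18 cases and rose in 1, with a median of 0.03. The members that fell in those lists include POLQ, the polymerase of alternative end joining, at -1.33 ± 0.13 and MSH6, a mismatch sensor, at -1.36 ± 0.10 in the authors' deposited table. XPC, a damage sensor of nucleotide excision, rose with shRNA 2 at 1.00 ± 0.11 (DESeq2 adjusted p = 6.66e-18) and fell with shRNA 1 at -0.38 ± 0.11 (DESeq2 adjusted p = 0.00516) in the authors' deposited tables. With shRNA 1 the falls were 4 of 12, 1 of 7, 2 of 8, 3 of 20 and 3 of 18 in the same order, and the genes that rose were 2 of nucleotide excision, DDB2 and CETN2. No test compared the lists with each other.

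Genes of the cell cycle moved with the members. All 34 DNA replication genes and all 24 mitosis genes fell with shRNA 2 (medians -1.78 and -1.69 from the authors' deposited table), against 16 of 34 and 5 of 24 with shRNA 1 (medians -0.34 and -0.14). E2F1 was at -2.48 ± 0.14 and E2F2 at -2.84 ± 0.13 with shRNA 2 in the authors' deposited table (DESeq2 adjusted p = 4.66e-72 and 4.18e-101), and at -1.04 ± 0.13 and -0.55 ± 0.12 with shRNA 1. Of the 19 E2F and pocket protein genes, 10 fell and 0 rose with shRNA 2, and 5 fell and 1 rose with shRNA 1. The part of the cell cycle in the members' falls was not tested.

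**Figure D3:**
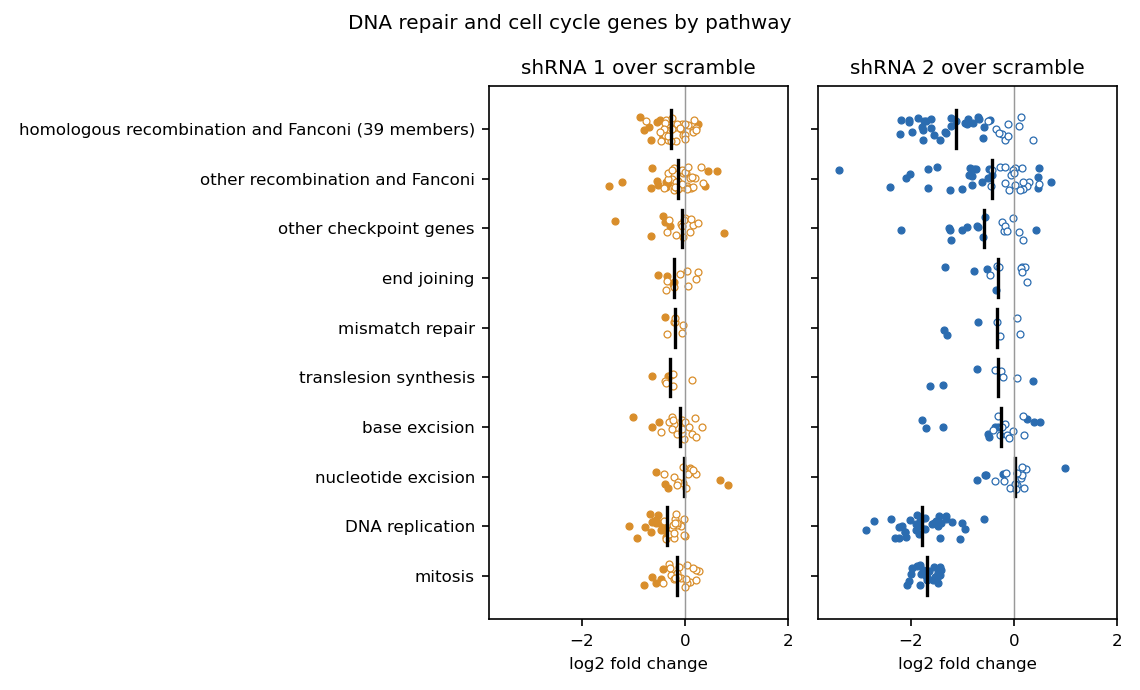
Log2 fold change over scramble of single genes by pathway, shRNA 1 on the left and shRNA 2 on the right; filled points have an adjusted p below 0.05 and the black bar is the median of the list. With shRNA 2 the 39 members (median -1.12) lie between the other repair lists (0.03 to -0.58) and the DNA replication and mitosis lists (-1.78 and -1.69).

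Promoter sequences were read because E2F control of many of these genes is textbook knowledge. RefSeq windows of 300 bases (250 before and 50 after the start, build GRCh38.p14) were matched for 35 of 39 members. The search took the 8-base E2F words TTTCCCGC, TTTGGCGC, TTTCGCGC and TTTGCCGC on both strands. A gene with several windows counted once, if any of them held a word. A word was present for 6 of 35 members (17.1%), namely XRCC2, RMI1, TOPBP1, FANCD2, FANCA and FANCC, against 6.44% of 10937 tested genes with a window and 3.31% of all 35116 windows. All 6 fell with shRNA 2, as did 20 of the 29 members without a word, and the medians were close, at -1.05 and -0.94. The 4 of these 6 with the lowest p are printed with, for contrast, the members with the highest log2 fold changes with shRNA 2, RAD52 and ATR. Each run holds 100 bases before and 30 after the start, 5' to 3' on the gene's strand, with the word in capitals. XRCC2 is from chr7:152676112-152676241, minus strand. RMI1 is from chr9:83980705-83980834, plus strand. TOPBP1 is from chr3:133661912-133662041, minus strand. FANCD2 is from chr3:10026337-10026466, plus strand. RAD52 is from chr12:990012-990141, minus strand. ATR is from chr3:142578704-142578833, minus strand.
XRCC2: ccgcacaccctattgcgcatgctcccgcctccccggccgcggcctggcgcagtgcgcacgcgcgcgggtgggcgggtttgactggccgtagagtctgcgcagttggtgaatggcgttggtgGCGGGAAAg
RMI1: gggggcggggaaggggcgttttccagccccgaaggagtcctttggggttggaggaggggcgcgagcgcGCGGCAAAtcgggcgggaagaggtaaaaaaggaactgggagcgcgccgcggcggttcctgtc
TOPBP1: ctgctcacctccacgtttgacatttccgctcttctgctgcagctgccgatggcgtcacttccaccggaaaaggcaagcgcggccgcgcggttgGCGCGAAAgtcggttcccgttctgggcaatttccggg
FANCD2: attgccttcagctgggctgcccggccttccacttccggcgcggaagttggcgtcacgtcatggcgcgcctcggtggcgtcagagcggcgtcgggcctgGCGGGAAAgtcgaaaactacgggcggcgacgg
RAD52: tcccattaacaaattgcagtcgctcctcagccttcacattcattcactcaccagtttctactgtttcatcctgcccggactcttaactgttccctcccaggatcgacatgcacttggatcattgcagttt
ATR: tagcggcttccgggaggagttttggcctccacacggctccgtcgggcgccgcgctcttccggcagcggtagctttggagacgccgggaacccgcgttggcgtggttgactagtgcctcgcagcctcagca

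In the printed windows the first base of the word is at position -32 for RMI1, -7 for TOPBP1, -2 for FANCD2 and 22 for XRCC2. It lies farther out at -172 for FANCA and stands at both -172 and -46 for FANCC, counted from the first transcribed base as 1. A shorter search, chosen after the first result was seen, dropped the first T of each word (both strands, overlapping every full word). It matched 20 of 35 members (57.1%), against 24.2% of tested genes and 13.0% of all windows. Of these 20 members 17 fell with shRNA 2, with a median of -1.32, and of the 15 without it 9 fell, with a median of -0.61. Among all tested genes, 31.3% of those with the shorter word and 19.5% of those without fell with shRNA 2. RAD52, XRCC3 and FANCF held the shorter word and were not called, while ATM, ATR, RAD50, MRE11, PALB2 and RAD51B held none and were not called either. Windows of members and of all tested genes were close in base composition, with a median GC content of 64.0% and 64.3%. CCAAT boxes (CCAAT, both strands) stood in 16 of 35 members (45.7%), against 43.0% of tested genes and 34.6% of windows, and the cell cycle homology word TTTGAA (both strands) in 4 of 35 (11.4%), against 14.0% and 15.2%. A match is a string of letters and not a shown binding site.

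Neighbours that start on the other strand close to a member give a comparison from the same stretch of DNA. GENCODE 29 annotates 24 such genes within 1000 bases of the start of 23 members, and 17 had an adjusted p in both comparisons. Of 11 pairs whose member fell with shRNA 2, the neighbour fell in 1 (MOSPD2 beside FANCB), rose in 1 (NBR1 beside BRCA1) and was not called in 9. Some of those not called had low counts and wide errors. TEX14 beside RAD51C had a mean of 47.2 and -0.76 ± 0.55. AC016708.1 beside BARD1 had a mean of 56.7 and 0.15 ± 0.44. A neighbour that was not called is thus not shown to be unchanged. Among all genes tested with shRNA 2, 18.1% were lower and 10.9% higher, so few such calls were to be found in 11 neighbours. RMI1 was at -2.04 and HNRNPK, an abundant RNA-binding protein gene whose start is 95 bases away, at -0.18 ± 0.08 (DESeq2 adjusted p = 0.0704 in the authors' deposited table). BRCA1 was at -1.43 and NBR1, an autophagy receptor gene, at 0.22 ± 0.09 with shRNA 2 (DESeq2 adjusted p = 0.0349 in the authors' deposited table). Over these 11 pairs the median was -1.33 for the members and 0.04 for the neighbours. The 11 pairs were chosen because the member fell, so the low median of their members was set in advance. Over all 17 pairs the medians were -0.92 and -0.12, and 4 neighbours fell and 1 rose with shRNA 2. The neighbours that fell outside the 11 pairs were NPAT, ERC1 and GAS2. GAS2, beside FANCF, was at -0.44 ± 0.12 in the authors' deposited table. Conversely NPAT, a regulator of histone genes, fell at -0.54 ± 0.15 (DESeq2 adjusted p = 0.00243 in the authors' deposited table) while ATM, whose start lies 158 bases from that of NPAT, stood at 0.10. The starts of ATM and NPAT overlap, as do those of FANCF and GAS2 and of CHEK2 and HSCB. Without knowledge of strand in the counting, reads from these shared stretches cannot be assigned. ERC1, beside RAD52, fell with both hairpins, at -1.26 ± 0.12 and -0.72 ± 0.12 in the authors' deposited tables.

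**Figure D4:**
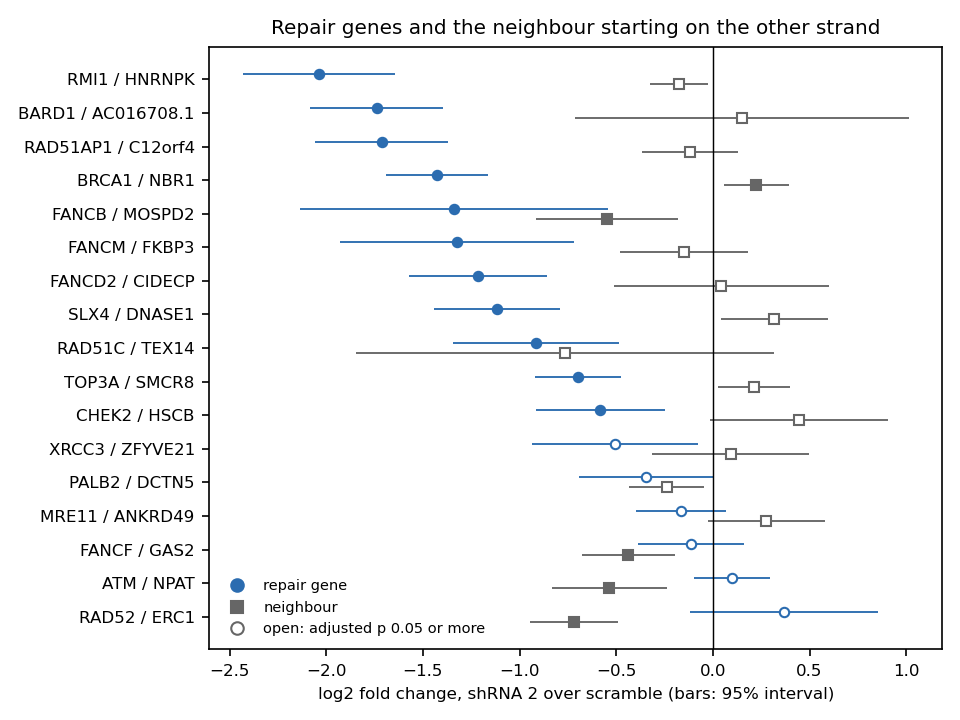
Log2 fold change with shRNA 2 for 17 repair genes (blue circles) and the gene that starts within 1000 bases on the other strand (grey squares); bars are 95% intervals from the deposited SE and open symbols have an adjusted p of 0.05 or more. In the upper 11 pairs the repair gene is lower, and the neighbour is called lower for FANCB (MOSPD2) and higher for BRCA1 (NBR1).

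The pairs were also read with shRNA 1, where 5 of the 17 neighbours fell and 0 rose. Of 4 pairs whose member fell with shRNA 1, the neighbour fell too in 3, beside 14.8% lower among all genes tested. The other 2 neighbours that fell, NBR1 and ERC1, stand beside BRCA1 and RAD52, which were not called. NBR1 was at -0.39 ± 0.09 with shRNA 1 (DESeq2 adjusted p = 8.91e-05 in the authors' deposited table) and BRCA1 at -0.08. RAD51AP1 was at -0.87 and C12orf4 at -0.73 ± 0.13, with DESeq2 adjusted p = 3.82e-07 for C12orf4 in the authors' deposited table. TOP3A was at -0.54 and SMCR8 at -0.69 ± 0.10, with DESeq2 adjusted p = 4.56e-11 for SMCR8 in the authors' deposited table. MRE11 was at -0.43 and ANKRD49 at -0.48 ± 0.16, with DESeq2 adjusted p = 0.0132 for ANKRD49 in the authors' deposited table. With shRNA 2 the same neighbours stood at -0.12, 0.21 and 0.27 and were not called, while RAD51AP1 and TOP3A fell. The starts of MRE11 and ANKRD49 overlap by 279 bases, and without knowledge of strand in the counting reads from the shared part cannot be assigned. The number of pairs is small and no test was run on it.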

How the data were processed

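Poly(A) RNA of MM.1S cells was sequenced from 6 libraries, 2 in each of 3 groups, taken from the labels. The submitters' processing notes list Salmon 0.12.0, DESeq2 1.24.0 and the build GRCh38 (hg38). Their settings, and whether counting used strand, are not stated in the labels. Per the file headers, the authors deposited a signal in mean normalised read counts, log2 fold changes with SEs, a Wald score, p-values and adjusted p-values. The Wald score deposited by the authors equals the log2 fold change over its SE to within 3.27e-07. The means are the same in both tables. The depth of each library is unknown; the means sum to 25062897 reads.

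The calls are the authors' deposited DESeq2 results across all genes at an adjusted p below 0.05. Group means, dispersions and the SE between hairpins were reconstructed with equal library sizes (Python 3.11.15, scipy 1.17.1). Dispersions solved from the 2 tables for 643 genes agreed best as coded, with a median absolute log ratio of 0.00408, against 0.0855 and 0.0939 with the first or second sign turned and 0.0321 with both turned. The difference test was tested on simulated data. Coordinates, neighbours and merged exons are from GENCODE 29 (all 33095 identifiers matched) and promoters from RefSeq.

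The members and 12 lists (222 of 224 symbols matched) were chosen with earlier results of these data known. Fully described are up to 3 members of each role with the lowest p, those called higher, and those called in opposite directions; of the lists, E2F1 and up to 3 genes with the lowest p with shRNA 2. Values of 1 further listed gene are not reported here. Other genes, and members beyond that number, such as TOP3A, were named after their values were seen. Alternatives covered threshold, fold minimum, filter, centring and the SE of the difference.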

Additional observations from a re-analysis of the deposited data

Results flagged for a closer look

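For 21 members the effect of the 2 hairpins differed in the z test at a Benjamini-Hochberg adjusted p below 0.05, and all 21 were lower with shRNA 2 than with shRNA 1. The differences of the log2 fold changes, shRNA 2 minus shRNA 1, were -1.35 for BRCA1, -1.08 for BARD1 and -1.87 for BRCA2 in the BRCA complex, and -1.52 for XRCC2 in the XRCC2 and XRCC3 complexes. They were -0.84 for RAD51AP1 and -1.38 for RAD54L. In end resection they were -0.38 for RAD50 and -0.79 for RBBP8. In junction dissolution they were -1.07 for BLM, -1.65 for RMI1 and -1.19 for RMI2. In the Fanconi pathway they were -0.68 for FANCA, -0.81 for FANCG, -1.40 for FANCL, -1.71 for UBE2T, -0.97 for FANCD2 and -1.31 for FANCI, and downstream -1.73 for BRIP1 and -0.80 for SLX4. In the checkpoint they were -0.64 for TOPBP1 and -2.25 for CHEK1. RAD50 was not called with shRNA 2 (-0.12), and its difference includes the rise with shRNA 1 (0.26). IRF3 itself was lower with shRNA 1 and not called with shRNA 2. The larger falls of the listed genes other than RAD50 thus stand beside the smaller change of the targeted mRNA.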

How the results depend on the processing

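Recentring on the median of the genes with a mean of 50 or more (-0.04 in both comparisons) changed no member's call. With shRNA 1, 9 members changed, which became 5 with a log2 fold change of at least 0.5 and lay between 7 and 13 under the other alternatives. With shRNA 2, 29 members changed, and 28 to 30 did under the alternatives. The median of the members with shRNA 2, -1.12, became -0.94 over the 35 members with a mean of 200 or more. The hairpins differed for 21 members, and for 20 to 27 under the alternatives, 27 being the count with the SE rebuilt without the shared scramble variance. The shorter E2F words matched 20 members in place of 6. No call reversed under these alternatives. No paired analysis was possible because both tables give group comparisons without per-library columns, and for the same reason no replicate was left out in turn. Low counts limit RAD51B, RAD54B, FANCB and FANCM, whose SEs exceed 0.30.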
